A study of Rattus norvegicus with 6 samples.

Results

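Transcripts of the transforming growth factor beta (TGF-beta) pathway were read by RNA-seq in rat cells that the labels call PC12, an adrenal pheochromocytoma line, in 6 libraries. The 9 genes chosen by name, out of 33350 gene models in the deposited table, are the ligand genes Tgfb1, Tgfb2 and Tgfb3, the latency gene Ltbp1, the receptor genes Tgfbr1 and Tgfbr2, and the signalling and feedback genes Smad3, Smad7 and Skil. All 9 were found, and Tgfbr1 had a second gene model without reads, so the one with the higher mean was used. In the 3 EN libraries, cells had been given exosomes (small secreted vesicles) of endothelial cells with high expression of netrin-1, an axon guidance protein. In the 3 EC libraries, cells had been given exosomes of control endothelial cells. All libraries share the cell line and an exosome treatment, and no library of cells without exosomes was analysed here. Neither dose nor duration is given in the sources used here. Nothing states that the replicates came from separate cultures, and the p-values speak only of the spread of these samples, part or all of which may be technical.

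As background, TGF-beta ligands are secreted in a latent form, held by their own propeptide and by latent TGF-beta binding proteins that tether them to the matrix. Once freed by integrins, proteases or thrombospondin, the ligand binds the type II receptor, which activates the type I receptor. The type I receptor phosphorylates SMAD2 and SMAD3, which enter the nucleus with SMAD4 and raise or lower target genes, among them the feedback inhibitors SMAD7 and SKIL. In injured peripheral nerve the pathway is known for its action on Schwann cells.

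Expression is given as FPKM, sequenced fragments (called reads here) scaled to gene length and library size, so that levels of different genes can be set side by side. Whole reads recovered from FPKM numbered 16654025 to 19626012 per EN library and 15296193 to 16165804 per EC library, so every EN library was the deeper. The share of reads from mitochondrial genes was 4.40% to 5.50% in EN and 5.43% to 6.09% in EC. Markers went against the cell line on the label: of 11 chromaffin and PC12 genes, only Th and Slc18a2 averaged at least 1 FPKM, and no read was counted for Pnmt or Hand2. Their summed level was 6.27 to 6.48 FPKM in EN and 6.45 to 7.44 FPKM in EC. The 9 Schwann and glial markers in the table summed to 362.1 to 394.3 FPKM in EN and 407.1 to 418.2 FPKM in EC. S100b, Ngfr and Sox10 were the highest of them, and the libraries are therefore called only by their label. Of 8 glial markers tested, 5 were lower and 1, Ngfr, was higher in EN at a limma adjusted p under 0.05 (the test described next). Of all tested genes, 7.14% were lower and 7.24% higher. Of 10 endothelial markers, 9 were found in the table, Pecam1 not among them, with no read of Cldn5 in any library and 1 read of Kdr. Their sum was 9.12 to 9.88 FPKM in EN and 7.00 to 8.97 FPKM in EC. That difference lay in Egfl7, at 6.09 ± 0.599 FPKM in EN and 4.12 ± 0.688 FPKM in EC (SD, n = 3 each; limma adjusted p = 0.041), while Tie1 and Tek did not pass, at log2 changes of -0.03 and 0.02. The summed fibroblast markers were at 120.1 to 122.5 FPKM in EN and 113.9 to 118.2 FPKM in EC, mostly from Pdgfra and Twist1, with no read of Lum. The summed macrophage markers were at 4.08 to 4.96 FPKM in EN and 3.69 to 4.96 FPKM in EC, nearly all of it Cd68, with no read of C1qa. For each marker without a read, the 6 libraries together allow a level of up to 0.0462 FPKM (3 reads, counting error only). The part of the glial and Egfl7 differences in the TGF-beta results was not tested, and in bulk RNA fewer cells of a type and less RNA per cell cannot be told apart. Ntn1 itself had 2 reads in EN replicate 2, 2 reads in EC replicate 1 and none in the other libraries.

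EN was set against EC to ask what high netrin-1 in the exosome donors changed in the recipient cells. Of the 9 genes, Tgfb1 was 1.20-fold higher and Tgfb2 was lower, at 0.780 of its EC mean, and the other 7 did not pass the test. The test was limma on log2(FPKM + 1) over the 12198 genes that averaged 1 FPKM or more, as all 9 did. A gene passed when its p, adjusted by Benjamini-Hochberg over all of them, was under 0.05. Across all tested genes 14.4% passed, 7.24% as higher and 7.14% as lower. The 2 of 9 (22.2%) that passed, 1 in each direction, are too few to set apart from that background. The median log2 change was 0.08 for the 9 genes and -0.0028 for all genes tested.

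In both groups the 9 transcripts spanned a wide range of levels. Ltbp1 was highest, at a mean of 156.9 FPKM over all 6 libraries, above 96.3% of tested genes. Tgfb1 came next at 68.2 FPKM, then Tgfb3 at 41.1 and Tgfbr2 at 27.9 FPKM, and the values of these 4 genes did not overlap one another in any library. Skil and Smad3 followed at 22.6 FPKM each and overlapped, as did Tgfbr1 at 10.5 and Tgfb2 at 10.4 FPKM. Smad7 was lowest at 6.57 FPKM, with 378 to 588 reads per library. In the library with the fewest reads of the gene, counting error was thus 5.14% of the value for Smad7 and 0.835% for Ltbp1.

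**Figure D1:**
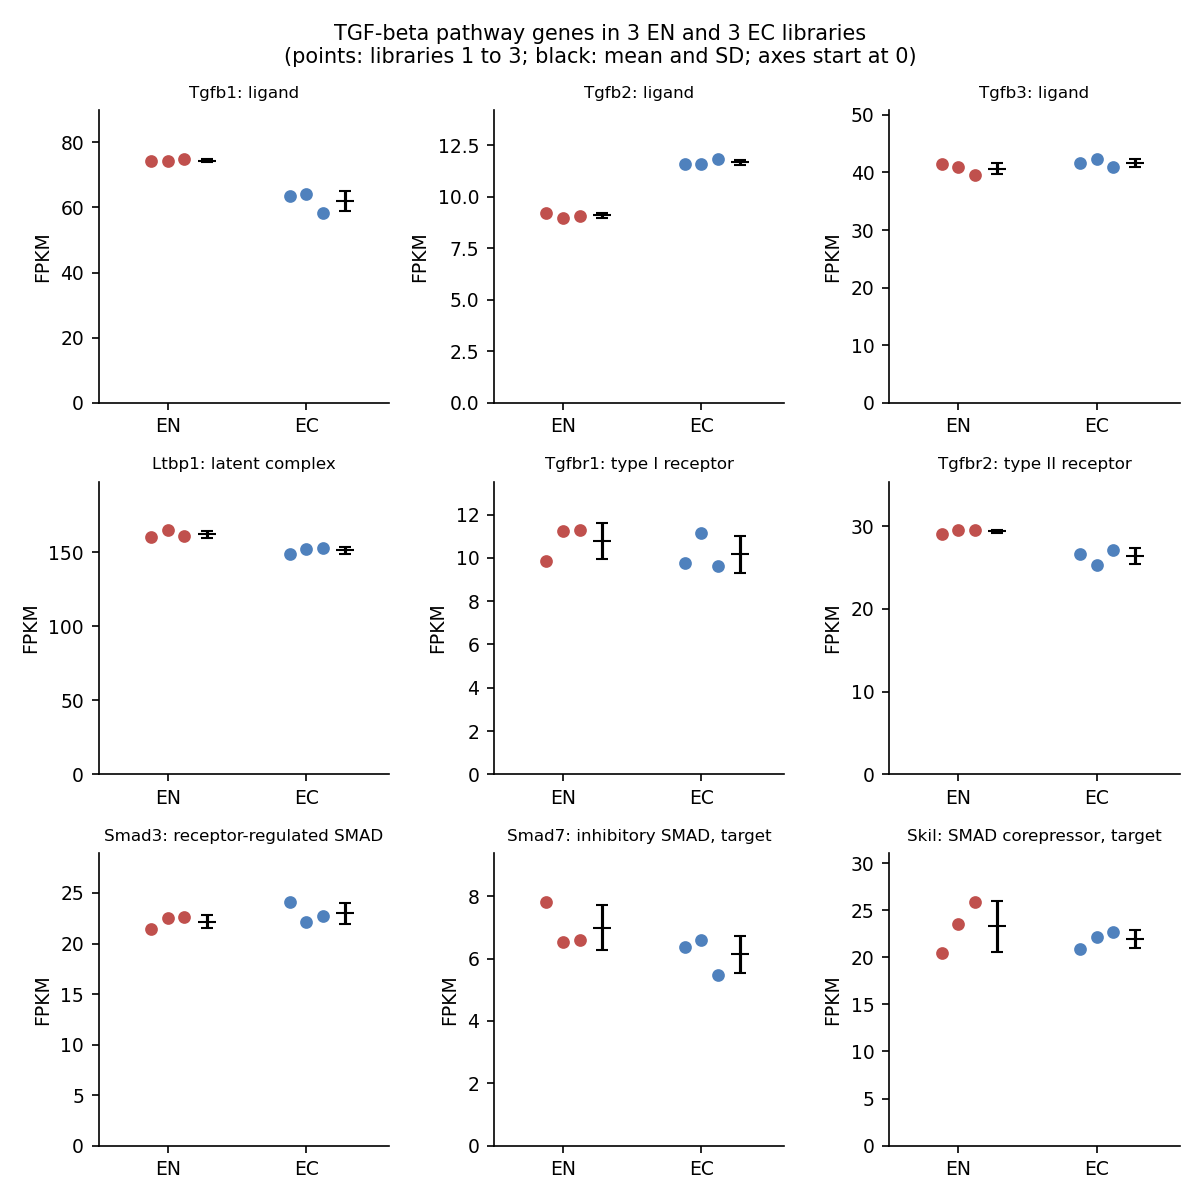
FPKM of each of the 9 genes in the 3 EN libraries (red) and the 3 EC libraries (blue), 1 point per library, with the mean and SD in black and every axis from 0. Tgfb1 is at 74.1 to 74.8 FPKM in EN and 58.3 to 64.0 FPKM in EC, and Tgfb2 at 8.98 to 9.24 FPKM in EN and 11.6 to 11.8 FPKM in EC, while Tgfb3, Tgfbr1, Smad3, Smad7 and Skil overlap.

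Of the 3 ligand genes, Tgfb1 rose, Tgfb2 fell and Tgfb3 did not pass. Tgfb1, which encodes the most widely expressed ligand (Rnor_6.0, chromosome 1, 82480195 to 82497199), had 74.2, 74.1 and 74.8 FPKM in EN replicates 1 to 3, and 63.4, 64.0 and 58.3 FPKM in EC replicates 1 to 3. Each EN library was above each EC library, and the EN libraries lay closer together than the EC libraries. The means were 74.4 ± 0.396 FPKM in EN and 61.9 ± 3.14 FPKM in EC (SD, n = 3 each). Its log2 change was 0.26 with an SE of 0.044 (limma adjusted p = 0.017). The call was lost without EN replicate 1 (limma adjusted p = 0.055) or EN replicate 2 (limma adjusted p = 0.065), with the log2 change at 0.26 in both fits.

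Tgfb2, whose product binds the type II receptor weakly without the coreceptor betaglycan (chromosome 13, 105039853 to 105141030), had 9.24, 8.98 and 9.09 FPKM in EN, and 11.6, 11.6 and 11.8 FPKM in EC. Each EN library was below each EC library, and both groups were tight. The means were 9.10 ± 0.130 FPKM in EN and 11.7 ± 0.147 FPKM in EC (SD, n = 3 each). On the log2 scale the change was -0.33 with an SE of 0.048 (limma adjusted p = 0.010). The call was lost without EN replicate 2 (limma adjusted p = 0.054, log2 change -0.32) or EC replicate 2 (limma adjusted p = 0.0501, log2 change -0.33). Betaglycan itself (Tgfbr3) had no read in any of the 6 libraries, which allows a level of up to 0.00493 FPKM over all of them (3 reads, counting error only; chosen after its value was seen). A small RNA model on the other strand overlaps Tgfb2 and was listed at 0. The 3 tested genes with the profile nearest to Tgfb2, by the distance between mean-centred log2(FPKM + 1) values over 6 libraries, were Fgfr1op, Trappc2 and Chp1, at distances of 0.055, 0.058 and 0.058.

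Tgfb3 (chromosome 6, 109913757 to 109935533), the ligand known from palate development, had 41.5, 41.0 and 39.5 FPKM in EN, and 41.6, 42.3 and 40.9 FPKM in EC. The groups overlapped, and the log2 change of -0.03 had a 95% interval of -0.12 to 0.06. Summed, the ligand transcripts were at 123.5 to 124.9 FPKM in EN and 111.1 to 118.0 FPKM in EC. Tgfb1 made up 59.4% to 60.6% of that sum in EN and 52.5% to 54.4% in EC, while Tgfb2 made up 7.23% to 7.40% in EN and 9.83% to 10.7% in EC. The ratio of Tgfb1 to Tgfb2 was 8.03, 8.26 and 8.23 in EN replicates 1 to 3, and 5.47, 5.52 and 4.92 in EC replicates 1 to 3. These sums, shares and ratios are descriptions without a test.

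**Figure D2:**
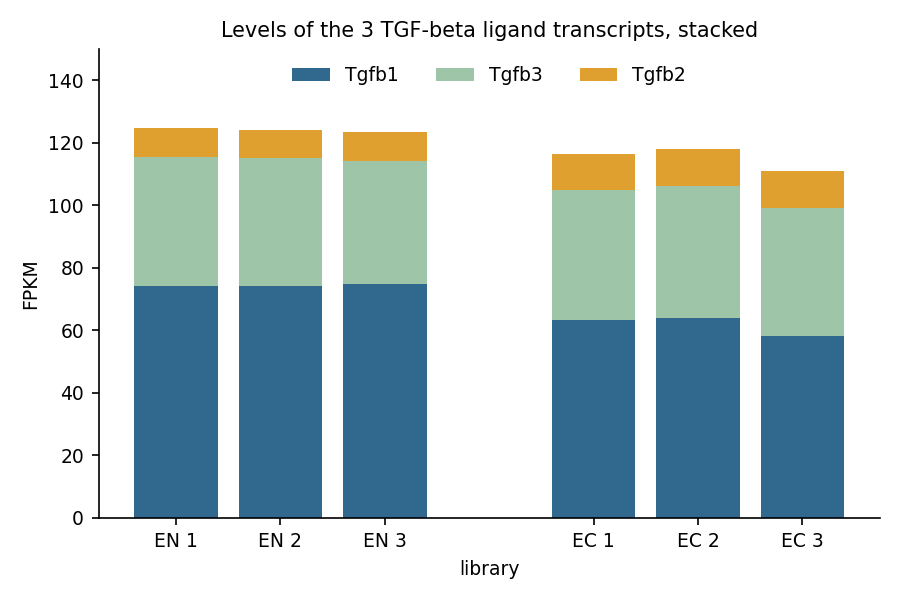
Stacked FPKM of Tgfb1 (bottom), Tgfb3 (middle) and Tgfb2 (top) in each EN library (left) and EC library (right). The stacks reach 123.5 to 124.9 FPKM in EN and 111.1 to 118.0 FPKM in EC, with a taller Tgfb1 part and a thinner Tgfb2 part in EN.

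The promoters of the 2 ligand genes that passed are shown because the genes changed in opposite directions. Each line gives the 250 bases before the gene start, 5′ to 3′, from RefSeq on the GRCr8 build, Tgfb1 from chr1:90324062-90324311 (+ strand) and Tgfb2 from chr13:100792686-100792935 (- strand). Capitals would mark CAGAC (a SMAD box), GTCTAGAC (a palindrome of SMAD sites), GGCGCC (a GC-rich SMAD element), TGAGTCA (an AP-1 site) or TGACGTCA (a cAMP response element), each searched on both strands. Neither window holds any of these motifs.
Tgfb1: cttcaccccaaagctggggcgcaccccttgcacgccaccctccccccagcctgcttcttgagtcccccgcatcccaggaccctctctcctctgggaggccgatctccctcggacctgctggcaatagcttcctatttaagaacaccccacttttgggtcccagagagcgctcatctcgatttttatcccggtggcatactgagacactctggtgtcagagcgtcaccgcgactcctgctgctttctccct
Tgfb2: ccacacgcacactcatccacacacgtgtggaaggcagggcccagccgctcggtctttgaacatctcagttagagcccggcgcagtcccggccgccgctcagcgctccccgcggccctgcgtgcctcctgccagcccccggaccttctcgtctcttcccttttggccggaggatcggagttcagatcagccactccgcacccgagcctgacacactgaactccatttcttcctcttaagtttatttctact

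Ltbp1, which binds latent TGF-beta covalently and anchors it to matrix fibres (chromosome 6, 21203502 to 21600451), had 160.6, 164.9 and 161.2 FPKM in EN, and 149.0, 152.4 and 153.2 FPKM in EC. All EN libraries were above all EC libraries, but the difference was small. The means were 162.2 ± 2.30 FPKM in EN and 151.5 ± 2.21 FPKM in EC (SD, n = 3 each). Its log2 change was 0.10 with an SE of 0.032 (limma adjusted p = 0.083). The gene did not pass here, but it passed with quantile normalization (limma adjusted p = 0.047), with voom on whole reads (limma adjusted p = 0.042) and with scaling by total reads (limma adjusted p = 0.049). The scaling by total reads was added after the data were seen. In the other 16 of 19 alternative fits Ltbp1 did not pass, among them every fit with 1 library left out. The ratio of Ltbp1 to Tgfb1 was 2.15 to 2.22 in EN and 2.35 to 2.63 in EC.

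Tgfbr2, the ligand-binding type II receptor (chromosome 8, 124312754 to 124399494), had 29.1, 29.5 and 29.5 FPKM in EN, and 26.7, 25.4 and 27.1 FPKM in EC. The groups did not overlap. The means were 29.3 ± 0.213 FPKM in EN and 26.4 ± 0.918 FPKM in EC (SD, n = 3 each). On the log2 scale the change was 0.15 with an SE of 0.042 (limma adjusted p = 0.056). It did not pass here, but it passed with a minimum mean of 5 FPKM (limma adjusted p = 0.045), with voom (limma adjusted p = 0.045) and with scaling by total reads (limma adjusted p = 0.044). In the other 16 of 19 alternative fits Tgfbr2 did not pass, among them every fit with 1 library left out. Groups that did not overlap were common over all tested genes (37.9%, with EN above in 18.6% and below in 19.4%), against 4 of the 9 TGF-beta genes, of which 3 had EN above and 1 below.

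Tgfbr1, the type I receptor kinase (chromosome 5, 63050758 to 63119635), had 9.85, 11.2 and 11.3 FPKM in EN, and 9.77, 11.2 and 9.61 FPKM in EC. Its groups overlapped, with 1 library near 11.2 FPKM in EC and 1 under 10 FPKM in EN. The log2 change was 0.08, with a 95% interval of -0.11 to 0.27. The ratio of Tgfbr2 to Tgfbr1 overlapped too, at 2.62 to 2.96 in EN and 2.27 to 2.82 in EC. Of the other coreceptor and type I receptor genes of this branch, the endothelial coreceptor gene Eng averaged 0.152 FPKM and Acvrl1 had 2 reads in all (both picked with their values known).

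The intracellular genes did not pass. Smad3, the receptor-activated transcription factor (chromosome 8, 68569530 to 68678349), had 21.4, 22.5 and 22.6 FPKM in EN, and 24.1, 22.1 and 22.7 FPKM in EC. The groups overlapped, with the highest library in EC and the lowest in EN, and the log2 change of -0.05 had a 95% interval of -0.17 to 0.07. The whole interval lies above the log2 change of Tgfb2.

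Smad7, which blocks the type I receptor and brings ubiquitin ligases to it (chromosome 18, 71395830 to 71424157), had 7.82, 6.55 and 6.61 FPKM in EN, and 6.36, 6.60 and 5.46 FPKM in EC. EN replicate 1 was the highest and EC replicate 3 the lowest library, and the other 4 lay between 6.36 and 6.61 FPKM. The log2 change was 0.16 with a 95% interval of -0.06 to 0.39 (limma adjusted p = 0.282), and with 1 library left out or another setting it ranged from 0.09 to 0.21. The ratio of Smad3 to Smad7 was 2.73 to 3.43 in EN and 3.35 to 4.16 in EC.

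Skil, which encodes the SMAD corepressor SnoN (chromosome 2, 115866701 to 115891097), had 20.5, 23.5 and 25.9 FPKM in EN, and 20.9, 22.2 and 22.7 FPKM in EC. The EN libraries spread over a wider range than the EC libraries and held both the lowest and the highest value. The means were 23.3 ± 2.72 FPKM in EN and 21.9 ± 0.935 FPKM in EC (SD, n = 3 each), a log2 change of 0.08 with a 95% interval of -0.12 to 0.28. The log2 change was close to 0 at its smallest among the alternatives (3e-04) and 0.16 at its largest.

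**Figure D3:**
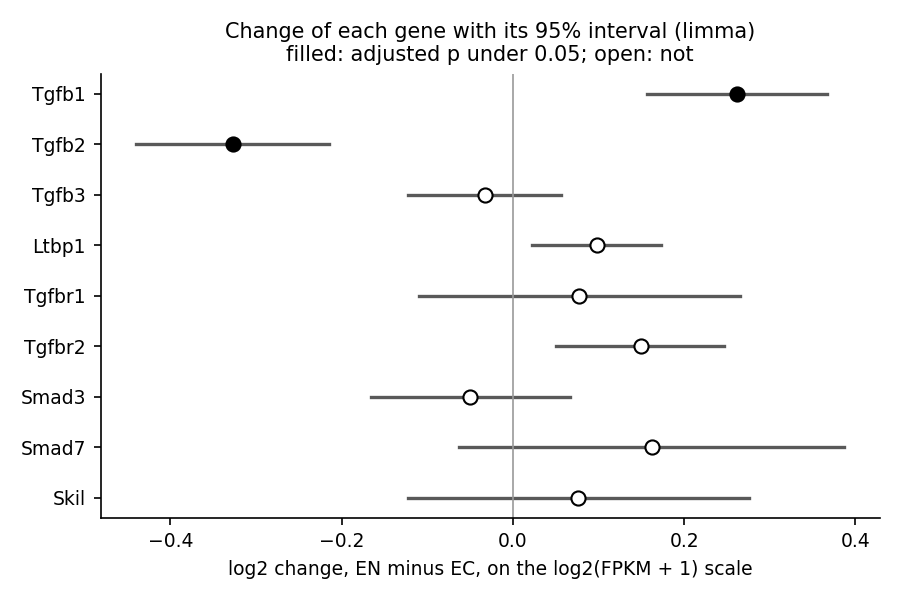
Log2 change of each gene, EN minus EC, on the log2(FPKM + 1) scale, with its 95% interval from limma as a bar; filled points have an adjusted p under 0.05. Tgfb1 lies at 0.26 and Tgfb2 at -0.33, both filled, and the intervals of Tgfb3, Tgfbr1, Smad3, Smad7 and Skil cross 0.

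Among the 9 promoters the letters of a SMAD box were present in Skil and Ltbp1, which are shown for that reason. Capitals mark the motifs spelled out above, and coordinates are GRCr8, chr6:26177302-26177551 (- strand) for Ltbp1 and chr2:114203573-114203822 (- strand) for Skil.
Ltbp1: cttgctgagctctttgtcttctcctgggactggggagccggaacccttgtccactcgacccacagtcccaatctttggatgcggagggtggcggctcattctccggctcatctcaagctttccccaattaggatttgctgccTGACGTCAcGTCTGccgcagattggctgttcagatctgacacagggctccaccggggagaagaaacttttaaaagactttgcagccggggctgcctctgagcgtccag
Skil: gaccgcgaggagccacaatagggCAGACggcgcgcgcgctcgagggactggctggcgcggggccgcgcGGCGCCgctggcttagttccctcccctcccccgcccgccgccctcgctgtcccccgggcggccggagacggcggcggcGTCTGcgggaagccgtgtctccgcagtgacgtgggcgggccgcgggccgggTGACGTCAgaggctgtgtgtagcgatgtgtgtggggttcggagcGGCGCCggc
In Ltbp1, a cAMP response element from base 108 to base 101 before the start stands 1 base from a SMAD box at bases 99 to 95, read as GTCTG. In Skil there are SMAD boxes at bases 227 to 223 and 104 to 100, GGCGCC at bases 182 to 177 and 9 to 4, and a cAMP response element at bases 53 to 46. Over all 33469 RefSeq promoter entries, windows of the same length hold CAGAC in 42.9%, GGCGCC in 8.69% and TGACGTCA in 1.59%, against 2, 3 and 2 of the 9. The palindrome GTCTAGAC (0.173% of entries) and TGAGTCA (4.05%) were in none of the 9. The other windows with GGCGCC were those of Tgfbr1 and Smad7. The windows are 56.8% G or C for Ltbp1 and 77.2% for Skil, and the median of all entries is 51.2%. The cAMP and AP-1 motifs were added to the search after the windows had been seen. A match describes letters only, and no binding was measured.

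Genes that free, sense or damp TGF-beta were read next. Of 38 other pathway genes, 31 were tested, 4 rose, 3 fell and 24 did not pass (22.6% past the test, against 14.4% of all tested genes), with a median log2 change of -0.03. This list and those below were chosen with earlier results of these data known. Whether their shares differ from that of all genes was not tested. Pmepa1, a target gene whose product holds back SMAD signalling, had 152.9 ± 4.86 FPKM in EN and 117.8 ± 6.23 FPKM in EC (SD, n = 3 each), a log2 change of 0.37. Smurf1, a ubiquitin ligase that works with SMAD7, was at 54.1 ± 1.88 FPKM in EN and 43.5 ± 1.57 FPKM in EC. Furin, a protease that cuts the ligand precursor, was at 46.8 ± 1.19 FPKM in EN and 39.3 ± 2.03 FPKM in EC. These 3 rose together with Ltbp2, a matrix protein of the Ltbp1 family (log2 change 0.28, chosen after its value was seen).

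The decreases in this list were led by Itgb8, the beta chain of an integrin that frees latent TGF-beta. Itgb8 was at 118.2 ± 6.68 FPKM in EN and 167.9 ± 7.80 FPKM in EC (SD, n = 3 each). Its log2 change was -0.50 with an SE of 0.054 (limma adjusted p = 0.0048). Its partner chain gene Itgav was at 108.7 ± 3.98 FPKM in EN and 108.4 ± 1.81 FPKM in EC and did not pass. Cd109, known from human cells as a coreceptor that lowers receptor number, had a log2 change of -0.36, and the SMAD-binding repressor gene Zeb2 of -0.22 (Zeb2 chosen after its value was seen). The SMAD partner gene Smad4, the receptor-binding immunophilin gene Fkbp1a, the phosphatase gene Ppm1a and Strap did not pass, with log2 changes of -0.13, 0.04, -0.07 and -0.01. Smad2 did not pass either, at -0.17 with a 95% interval of -0.34 to 0.01 (chosen after its value was seen). Of these 7 calls, only Itgb8 and Pmepa1 were kept in all 6 fits with 1 library left out. The Smurf1 call was lost without EN replicate 2 (limma adjusted p = 0.052). The calls of Cd109 and Furin were lost without EN replicate 1, EN replicate 2, EC replicate 2 or EC replicate 3, with a highest limma adjusted p of 0.074 and 0.082. Zeb2 passed in 1 of these fits, that without EN replicate 3, and Ltbp2 in none of the 6. The number of calls was 2 without EN replicate 2 and 3 without EN replicate 1, EC replicate 2 or EC replicate 3. The kinase gene Map3k7 varied most among the tested genes of the list (chosen after its values were seen). It was at 5.26, 2.15 and 0.798 FPKM in EN and 0.943, 5.98 and 0.984 FPKM in EC.

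Textbook target genes went both ways, with the larger changes downward. Of 32 listed, 22 were tested, 2 rose, 6 fell and 14 did not pass (36.4% past the test, against 14.4% of all tested genes), with a median log2 change of -0.06. The lower genes included Thbs1, whose product can free latent TGF-beta, at a log2 change of -0.76, and Ctgf, a matricellular growth factor gene, at -0.57. Ctgf had 887.1 ± 20.2 FPKM in EN and 1319 ± 33.5 FPKM in EC (SD, n = 3 each; limma adjusted p = 7.7e-04). Fn1 (fibronectin) was lower by a log2 change of -0.42. The decreases of Thbs1, Ctgf and Fn1 were kept in all 6 fits with 1 library left out.

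The targets that rose were Pmepa1 and the cell cycle inhibitor gene Cdkn1a, at log2 changes of 0.37 and 0.33, so the change in targets was not in 1 direction. The list does not separate targets that the pathway raises from targets that it lowers, so its counts and median do not measure pathway activity. Id1 and Id2, genes best known as BMP targets, were lower by log2 changes of -0.21 and -0.16 (Cdkn1a, Id1 and Id2 chosen after their values were seen). The Id1 and Id2 calls were lost in every fit with 1 of the 6 libraries left out, and that of Cdkn1a without EN replicate 2 or EC replicate 2. Id3 had a log2 change of -0.24 and did not pass (limma adjusted p = 0.084), nor did Bhlhe40, Tgif1, Ski and Junb, at 0.08, 0.12, 0.16 and 0.06. Without EN replicate 2 or EC replicate 2 the list had 5 calls. The other 10 listed targets averaged under 1 FPKM and were not tested, among them Cdkn2b, which had no read in 6 libraries, allowing up to 0.00528 FPKM (chosen after its value was seen). Several of the target genes also respond to other pathways, and the list shares 6 genes with the pathway list (Pmepa1, Ldlrad4, Ski, Bambi, Tgif1 and Itgb6).

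In the activin and BMP branch, 16 of 27 listed genes were tested, 3 rose, 2 fell and 11 did not pass (31.2% past the test, against 14.4% of all tested genes), with a median log2 change of -0.01. The BMP ligand genes Bmp7 and Bmp2 were higher, by log2 changes of 0.35 and 0.41. Gdf15, listed here as a distant member of the ligand family and not as an activin or BMP, was higher by 0.48. Bmp7 was at 11.6 ± 0.506 FPKM in EN and 8.84 ± 0.637 FPKM in EC (SD, n = 3 each), while Bmp2 and Gdf15 were at low levels, 2.42 ± 0.146 and 3.53 ± 0.584 FPKM in EN and 1.57 ± 0.129 and 2.23 ± 0.160 FPKM in EC. Acvr1, a type I receptor gene, and Smad5, a BMP-activated SMAD gene, were lower, by log2 changes of -0.23 and -0.20. Fst, the activin inhibitor follistatin, was at 71.2 ± 3.04 FPKM in EN and 65.1 ± 2.06 FPKM in EC and did not pass, nor did Bmpr1a, Bmpr2, Gdf11 and Acvr2a, at log2 changes of -0.22, -0.19, 0.01 and -0.14. Bmpr2 shares its locus with a model on the opposite strand, and whether reads were counted by strand is not stated. None of these 5 calls was kept in all 6 fits with 1 library left out, and no gene of the branch passed without EN replicate 1, EN replicate 2, EC replicate 2 or EC replicate 3. Without EC replicate 1 there were 2 calls.

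**Figure D4:**
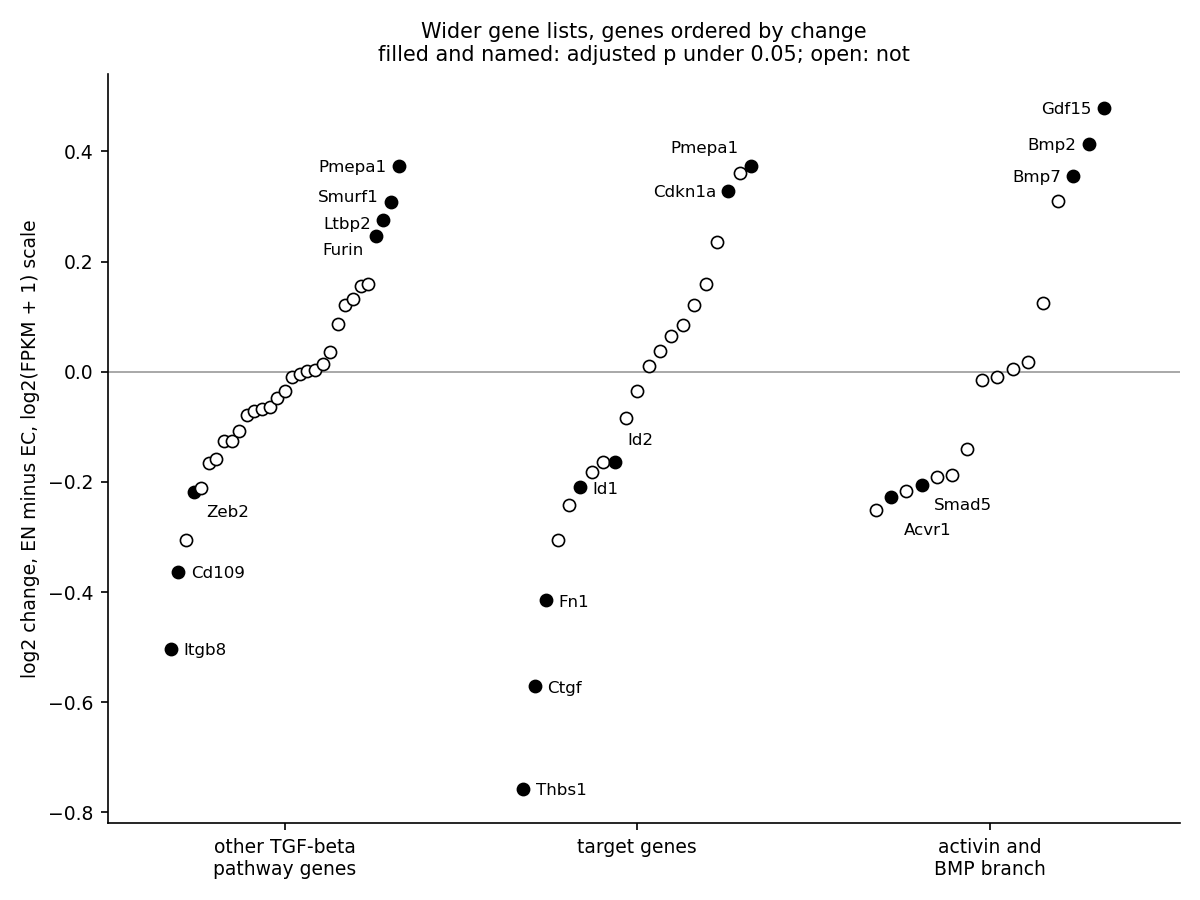
Log2 change, EN minus EC, on the log2(FPKM + 1) scale, of the tested genes of the 3 wider lists (1 target gene is not drawn), ordered by change within its list; filled and named points have a limma adjusted p under 0.05. Thbs1 is lowest at -0.76 and Gdf15 highest at 0.48, and each list has filled points on both sides of 0.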

How the data were processed

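RNA was taken with Trizol and made into libraries with an Illumina TruSeq RNA kit, per the labels' protocols. The authors deposited 1 table of FPKM for 33350 gene models. HISAT2 2.0.5 and the Rnor_6.0 build are named in the submitters' processing notes. How reads were counted, with which annotation release, strand setting or filters, is not given in the sources used here. All 6 value columns belong to these samples. FPKM times gene length came in whole multiples of 1 step in each library (to within 0.001), which gave whole reads. Libraries differed beyond sampling noise, with a chi-square of 3.82 or more per degree of freedom for each pair. Within EN it was 3.82 between replicates 1 and 2, but 8.98 and 6.5 between replicate 3 and replicates 1 and 2. Within EC it was 3.83 to 5.52, and between groups 10.6 to 23.4.

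Groups were compared in R 4.3.3 with limma 3.58.1 on log2(FPKM + 1), a scale that understates the change of low genes. The test was two-sided with a mean-variance trend and no term beside group, and was tried on simulated data. The simulation gave every gene the same spread beyond counting error, so it does not show how the test performs on these libraries. Genes needed a mean of at least 1 FPKM, and p was adjusted over all 12198. Folds in the text are ratios of mean FPKM. Alternatives were pseudocounts of 0.1 and 0.5, no filter or at least 5 FPKM, TPM, median centring, quantile normalization, a replicate block, no trend, voom on whole reads and each library left out. Scaling by total reads, scaling without mitochondrial genes and protein-coding models alone were added after the data were seen.

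The 9 genes and the lists were chosen with earlier results of these data known. Genes named from each wider list are up to 5 with the smallest adjusted p and up to 5 of the highest that did not pass; any other gene of these lists given with a value is marked as chosen later. Results for 2 listed genes are not reported here, though the counts and sums of their lists include them. Of 38, 32 and 27 listed genes, 38, 32 and 26 were found, Ccn2 under its older symbol Ctgf. Promoters came from RefSeq (GRCr8), and no GRCr8 coordinate was set against those of the table. For each of the 9 genes the first entry of its symbol was used, so windows of any other start were not searched. Groups of 3 were too small for the check of single samples far from their group.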

Additional observations from a re-analysis of the deposited data

How the results depend on the processing

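Over 19 alternatives, none of the 9 genes changed direction. Tgfb3, Tgfbr1, Smad3, Smad7 and Skil stayed short of the threshold in all 19. Tgfb1 (log2 change 0.22 to 0.29) and Tgfb2 (-0.36 to -0.31) each passed in 17, and Tgfbr2 and Ltbp1, which do not pass in the reported fit, each passed in 3. With 1 library left out, 0 to 2 of the 9 genes passed, 0 of them without EN replicate 2. With voom on whole reads 4 passed, and likewise 4 with scaling by total reads. Over all genes the count was 1754, against 866 without a filter and 1019 without the variance trend. With 1 library left out it was 2059 without EN replicate 3 and 1616 without EC replicate 1. Leaving out any other library brought the count to between 338 and 446. Scaling by total reads moved the share of higher genes among the calls to 58.6%, against 50.3%, and it was 39.7% without EN replicate 1 and 41.6% without EN replicate 2. With 1 library left out the other pathway genes had 2 to 8 calls, the target genes 5 to 7 and the activin and BMP branch 0 to 4. That branch had 1 call without a filter, 3 with at least 5 FPKM and 3 without the trend. Apart from the filters, which change the genes tested, the cause of these differences was not tested.

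The replicate numbers are not shown to pair the libraries: deviations from the group means correlated between same-numbered libraries at r = 0.088, -0.095 and -0.020 for numbers 1, 2 and 3. Of the EN libraries, only replicate 1 correlated best with its own number. EN replicate 2 did so with EC replicate 3 (r = 0.062), and EN replicate 3 with EC replicate 2 (r = 0.134). The replicate block gave 1907 calls over all genes and the same 2 among the 9 genes, with limma adjusted p of 0.026 for Tgfb1 and 0.024 for Tgfb2.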
